A study of Mus musculus with 34 samples.

Results

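The genes described here are 9 axon growth and neuronal maturation genes of the mouse that were named as high in mossy cells of the hippocampus: Stmn2, Stmn3, Stmn4, Gap43, Basp1, Uchl1, Cend1, Gng3 and Fxyd6. They are 9 of the 24485 gene symbols in the deposited count tables, and they were chosen by name with their levels in these libraries known, so the level in mossy cells is a description and not a finding. The tables hold 34 RNA sequencing libraries of wild-type (WT) mice given vehicle or fluoxetine, a selective serotonin reuptake inhibitor. There were 4 libraries per treatment of granule cells, whose axons are the mossy fibres of the dentate gyrus. Mossy cells, glutamatergic neurons of the hilus, gave 6 libraries with vehicle and 7 with fluoxetine, and the source labelled hippocampus gave the same numbers. The labels of every library name translating ribosome affinity purification (TRAP), in which tagged ribosomes are pulled down with the mRNAs they carry. Whether the hippocampus libraries hold this bound RNA or input RNA, taken before the pull-down, is not stated. Differences between mossy cells and hippocampus may therefore compare unlike RNA. The labels give no dose, duration, age or sex, do not say what drove the tag or which cells carried it in the hippocampus libraries, and do not state that replicates were separate animals. The p-values therefore measure only the spread between these samples, which may be technical. Levels are given as CPM, read counts scaled to the size of the library, and RPKM is that value per kilobase of transcript.

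Growing axons extend by adding tubulin at the growth cone, and a neuron keeps part of this machinery when it is mature. Stathmins bind tubulin dimers and make microtubules less stable, while the growth cone proteins GAP43 and BASP1 sit under the plasma membrane, are substrates of protein kinase C and influence the actin cytoskeleton. The other genes encode a ubiquitin hydrolase, a protein of neuronal cell cycle exit, a G protein subunit and a regulator of ion transport, all of them found in neurons.

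Start regions of 6 of the 9 genes were available from RefSeq (GRCm38.p6), and the 3 with a CCAAT or GC box are shown. Each run is the 250 bases before the gene's start, 5′ to 3′ on the gene's strand, with matches to CCAAT, or to GGGCGG in Basp1, on either strand in capitals. They lie at chr7:141429563-141429812 (minus strand) for Cend1, chr9:45369935-45370184 (plus strand) for Fxyd6 and chr15:25413765-25414014 (minus strand) for Basp1.
Cend1: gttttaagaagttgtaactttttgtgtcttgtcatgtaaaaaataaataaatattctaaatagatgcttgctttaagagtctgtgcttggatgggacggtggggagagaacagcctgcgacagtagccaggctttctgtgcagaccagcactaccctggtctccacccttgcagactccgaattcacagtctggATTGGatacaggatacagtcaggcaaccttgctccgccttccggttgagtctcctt
Fxyd6: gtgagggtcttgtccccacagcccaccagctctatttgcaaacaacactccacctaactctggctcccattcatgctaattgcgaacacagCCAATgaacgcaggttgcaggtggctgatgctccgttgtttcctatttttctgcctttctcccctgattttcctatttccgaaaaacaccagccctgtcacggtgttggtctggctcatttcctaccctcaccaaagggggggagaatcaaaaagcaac
Basp1: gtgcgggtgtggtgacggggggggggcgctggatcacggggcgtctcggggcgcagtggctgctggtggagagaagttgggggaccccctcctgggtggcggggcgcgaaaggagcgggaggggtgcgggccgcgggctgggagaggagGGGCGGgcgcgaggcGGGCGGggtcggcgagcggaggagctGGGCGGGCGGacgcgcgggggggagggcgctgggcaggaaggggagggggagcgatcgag
CCAAT was found on either strand in 2 of the 6 windows of 300 bases, and in 37.4% of all 32851 promoter windows of that length. The GC box GGGCGG occurred 4 times in Basp1, with 1 overlapping pair, in none of the other 5 windows, and in 35.7% of all windows. Basp1 also differed in composition, with 78% GC and 38 CpG against a median of 52.67% and 7 over all windows, while the other 5 held 2 to 12 CpG. GGACAG, one end of the RE1 element bound by the neuronal repressor REST, was found in Gng3 and in 22.2% of all windows, while its other end TTCAGCACC was in none of the 6 and in 0.371% of all. The TATA box TATAAA (13.6% of all windows), the cAMP response element TGACGTCA (1.79%), the E-box CACGTG (7.15%) and the NRF1 core (0.971%), searched on both strands, were also in none of the 6. A match of letters is a description and shows no bound site.

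In libraries as a whole, total counts were 14.1 to 40.0 M in granule cells, 23.6 to 43.5 M in mossy cells and 23.9 to 45.0 M in hippocampus. The ribosomal RNA precursor Rn45s took 0.694 to 7.71% of counts in granule cells, 15.3 to 22.5% in mossy cells and 11.5 to 15.3% in hippocampus. The 9 genes together took 0.496 to 0.673% of counts in mossy cells, 0.234 to 0.331% in hippocampus and 0.197 to 0.283% in granule cells. Summed over 8 mossy cell markers, vehicle levels were 441 to 590 CPM in mossy cells, 149 to 370 in granule cells and 232 to 261 in hippocampus. Summed over 10 interneuron markers they were 3207 to 4419 CPM in mossy cells, 512 to 754 in granule cells and 537 to 602 in hippocampus. Against hippocampus, 6 of 8 mossy cell markers and 9 of 10 interneuron markers had a higher level in vehicle mossy cells. The part of interneuron RNA in the levels below was not tested. Glial markers were low in mossy cells, with 366 to 520 CPM over 6 astrocyte genes against 1411 to 1740 in hippocampus.

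Of the 9 genes, 7 were higher in mossy cells than in both other sources, and Stmn4 and Basp1 were not clearly higher there than in granule cells. With vehicle, all mossy cell libraries lay above hippocampus for 24% of all genes tested and above granule cells for 19%. The share above both sources at once was not counted, and the genes were chosen for this level. Among the stathmins, Stmn3, which encodes a microtubule destabiliser of neurites, had the highest level in mossy cells. With vehicle its 6 mossy cell libraries ran from 1131 through a median of 1317 to 1347 CPM. The hippocampus libraries ran from 410 through 445 to 462 CPM, and the granule cell libraries held 222, 219, 234 and 203 CPM. No library of one source reached the range of another. Stmn2, the stathmin of growth cones and regenerating axons, ran from 680 through 729 to 806 CPM in mossy cells and from 369 through 400 to 406 in hippocampus. Its 4 granule cell libraries held 306, 196, 174 and 324 CPM, so that replicates 1 and 4 stood well above replicates 2 and 3.

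Stmn4, another stathmin of neurons, stood apart from most of the 9. With vehicle it stood at 188, 179, 185 and 202 CPM in granule cells, and it ran from 149 through 155 to 177 CPM in mossy cells. All 6 mossy cell libraries therefore lay below every granule cell library, while they lay above every hippocampus library (105 to 121 CPM). With fluoxetine the order of the means turned, as the granule cell libraries held 140, 157, 176 and 175 CPM and the mossy cell libraries ran from 164 through 182 to 201 CPM. These fluoxetine ranges overlapped, with 6 of 7 mossy cell libraries above every granule cell library. With an offset for transcript GC content and length, mossy cells stood below granule cells with fluoxetine too. The fluoxetine effect on Stmn4 was not shown to differ between these sources (adjusted p = 0.173 over all genes in edgeR).

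Gap43, the growth cone substrate of protein kinase C that binds calmodulin, ran from 414 through 455 to 479 CPM in vehicle mossy cells. It ran from 146 through 159 to 177 CPM in hippocampus and stood at 88.2, 73.2, 76.1 and 68.1 CPM in granule cells. The sources did not overlap. Basp1, the related membrane protein, ran from 760 through 807 to 917 CPM in mossy cells and from 344 through 379 to 400 in hippocampus. Its granule cell libraries held 874, 454, 423 and 836 CPM, and replicates 1 and 4 reached into the mossy cell range. The same replicates were those high in Stmn2. They also held 1561 and 1656 CPM of summed CA1 and CA2 pyramidal markers, against 649 and 649 in replicates 2 and 3. Summed pan-neuronal genes stood at 18005 and 17187 against 9828 and 9291 CPM. Rn45s took 0.94 and 1.13% of counts against 3.59 and 5.42%. The part of this split in the levels of Basp1 and Stmn2 was not tested. The fitted standard error of Basp1 in the comparison of mossy with granule cells (0.21) was the largest of the 9.

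Uchl1, the abundant neuronal ubiquitin hydrolase, ran from 1154 through 1293 to 1316 CPM in vehicle mossy cells and from 522 through 548 to 562 in hippocampus. Its granule cell libraries held 265, 289, 351 and 284 CPM. Cend1, which encodes a protein of cell cycle exit and neuronal differentiation, had a mean of 1032 ± 53.3 CPM in mossy cells, 417 ± 25.6 in hippocampus and 202 ± 29.1 in granule cells (SD, n = 6, 6 and 4). Gng3, a G protein gamma subunit, had 999.6 ± 106 CPM in mossy cells, 461 ± 11.9 in hippocampus and 229 ± 1.99 in granule cells. Fxyd6, which encodes a small membrane protein that regulates ion transport, was lowest of the 9 in granule cells, at 26.5, 21.8, 20.8 and 26.8 CPM. It ran from 184 through 209 to 267 CPM in mossy cells and from 43.8 through 53.0 to 54.4 in hippocampus. For these 4 genes no library of mossy cells overlapped another source.

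**Figure D1:**
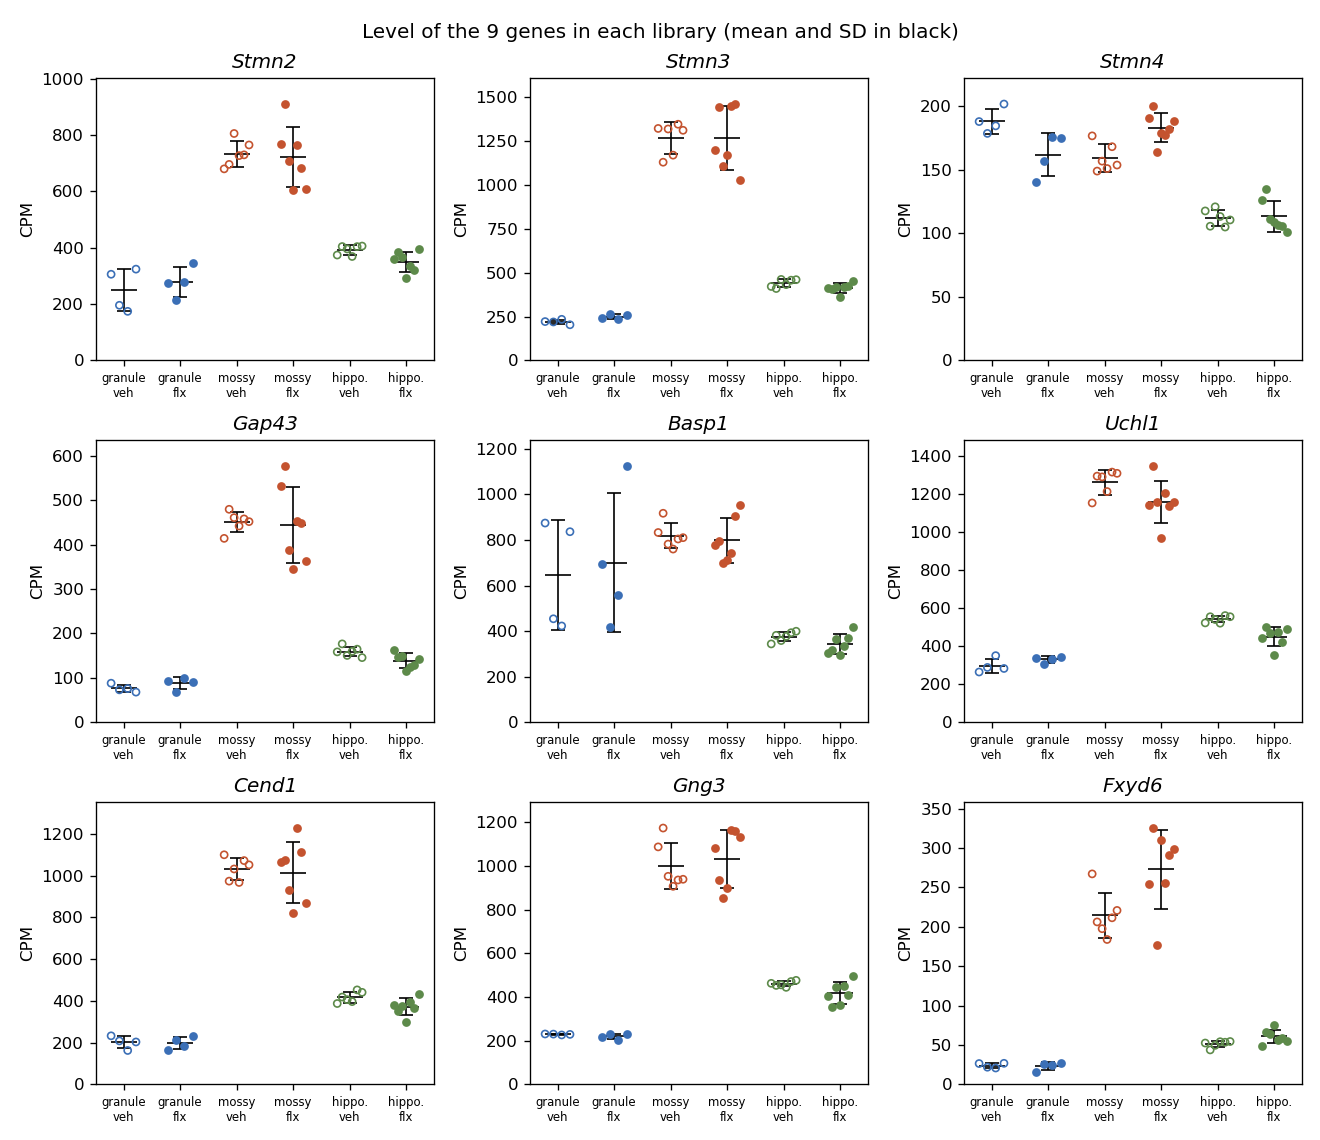
Level in CPM (vertical axes, linear, from 0) of each of the 9 genes in every library (points), with the mean and SD of each group in black; open points are vehicle, filled points fluoxetine. In 7 panels every mossy cell library lies above all others, while the mossy and granule cell libraries of Stmn4 and Basp1 share a range. The genes were chosen for a high level in mossy cells, and the share of all genes above both sources was not counted.

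As fitted log2 differences with vehicle, mossy cells exceeded hippocampus by 0.90 for Stmn2, 1.52 for Stmn3, 0.50 for Stmn4 and 1.12 for Basp1, and Gap43 was 2.83 times as high. The difference was 1.22 for Uchl1, 1.31 for Cend1, 1.12 for Gng3 and 2.06 for Fxyd6, which is 4.17-fold. For all 9, every mossy cell library was above every hippocampus library, as for 24% of the 15922 genes tested (24.3% were as fully below). With fluoxetine it was again all 9, against 19.1% of genes above and 19.7% below. The median of the 9 was 1.22, beside 0.58 for 12 pan-neuronal genes, 0.45 for 33 other axon growth genes and −0.04 for all genes tested. Against granule cells the differences were 1.59 for Stmn2, 2.57 for Stmn3, −0.20 for Stmn4, 2.60 for Gap43 and 0.38 for Basp1. They were 2.13 for Uchl1, 2.39 for Cend1, 2.16 for Gng3 and 3.20 for Fxyd6. In this comparison 7 of 9 lay above every granule cell library, against 19% of 15444 genes, and 1 of 9, Stmn4, lay below, against 18.4%. With fluoxetine the same 7 lay above (15.5% of genes) and none below (15.3%). With an offset for transcript GC content and length, the vehicle difference of Basp1 against granule cells turned to −0.28, and the fluoxetine differences of Basp1 and Stmn4 to −0.42 and −0.30, from 0.22 for both. The levels in mossy cells chose the genes, so nothing is read from these counts or from the median of the 9 beside the other lists.

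Compared per length, the order of vehicle levels in mossy cells was Stmn3 (1116 ± 81.0 RPKM), Uchl1 (1073 ± 55.2), Gng3 (608 ± 64.7), Cend1 (596 ± 30.7), Basp1 (441 ± 29.5), Stmn2 (354 ± 22.1), Gap43 (317 ± 15.4), Fxyd6 (120 ± 16.02) and Stmn4 (117 ± 8.01; SD, n = 6). Stmn3 and Uchl1, Gng3 and Cend1, and Fxyd6 and Stmn4 are neighbours whose means differ by less than their SDs. In granule cells Basp1 stood first (349 ± 130 RPKM, n = 4), followed by Uchl1 (252 ± 31.7). By CPM, 7 of the 9 rank 48 to 265 among 15922 genes in vehicle mossy cells, with Fxyd6 at rank 801 and Stmn4 at 1211. The transcripts of the 9 are short, at 1136 to 2073 bases against a median of 3109 over the genes tested.

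The make-up of the gene families differed between sources. Of the summed RPKM of Stmn1 to Stmn4, Stmn3 held 49.4% ± 1.69 in vehicle mossy cells, 41.1% ± 1.78 in hippocampus and 28.8% ± 3.33 in granule cells (SD, n = 6, 6 and 4). Stmn4 held 5.19% ± 0.233 in mossy cells, 8.73% ± 0.469 in hippocampus and 20.5% ± 1.08 in granule cells. Gap43 held 41.9% ± 1.60 of the pair Gap43 and Basp1 in mossy cells and 14.4% ± 4.50 in granule cells. Gng3 held 63.5% ± 2.34 of the RPKM of 11 gamma subunit genes in mossy cells, 45.7% ± 0.877 in hippocampus and 28.6% ± 3.62 in granule cells. Uchl1 held 94.6% ± 0.568 of Uchl1, Uchl3 and Uchl5 in mossy cells and 76.5% ± 7.90 in granule cells. These shares use the levels that chose the genes and are given without a test between sources.

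**Figure D2:**
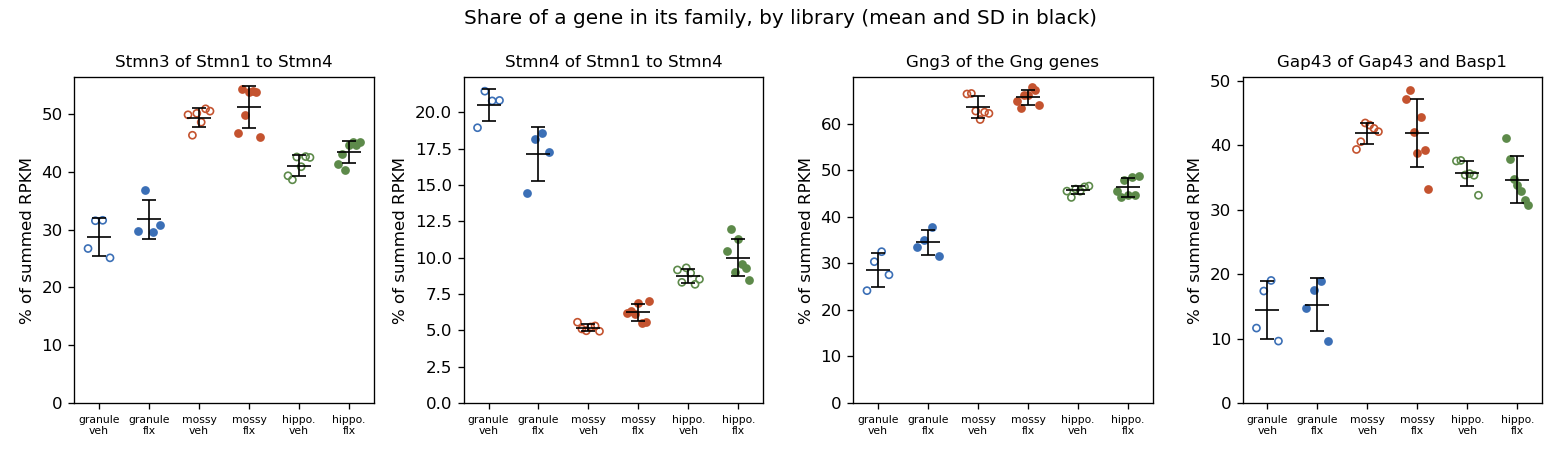
Share of a gene in the summed RPKM of its family (vertical axes, %, from 0) in every library (points) by source and treatment, with the mean and SD in black. Stmn3, Gng3 and Gap43 take their highest share in mossy cells and Stmn4 its highest share, 20.5%, in vehicle granule cells.

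The genes whose pattern over the 6 group means of log2 CPM was most like the mean of the 9, among 5274 genes with a mean of at least 5 and leaving out the 9 and predicted genes, were Necab2, Diras1, Tomm40, Chchd10, Ccdc124, Lypla2, Atox1, Znhit1, Stx1a and Mif. Their root-mean-square distances ran from 0.069 for Necab2 to 0.118 for Mif (log2). Of the 9 themselves, Uchl1 was closest, at 0.097 and rank 6, and Stmn4 (0.773), Basp1 (0.669) and Fxyd6 (0.631) were farthest.

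The genes were named for a high level in mossy cells and not for a response to fluoxetine. Earlier results of these data were known when they were chosen, so the comparison of fluoxetine with vehicle may not be free of selection. In mossy cells none of the 9 changed past the threshold, an adjusted p of 0.05 over all genes in edgeR, where 9.31% of 14229 genes passed (8.05% higher, 1.26% lower), and 3324 genes had an unadjusted p under 0.05. For none of the 9 were the treatments fully apart, against 2.45% of genes with fluoxetine above and 0.717% with it below. DESeq2 called 1869 genes (1473 higher, 396 lower) and 2 of the 9, Stmn4 and Fxyd6. Stmn4 had vehicle libraries from 149 through 155 to 177 CPM and fluoxetine libraries from 164 through 182 to 201. Of the 7 fluoxetine libraries 6 lay above every vehicle library, and the log2 difference was 0.20 ± 0.07 (SE, adjusted p = 0.0904 in edgeR and 0.0462 in DESeq2). Fxyd6 had vehicle libraries from 184 through 209 to 267 CPM and fluoxetine libraries from 177 through 291 to 325. Of these, 4 of 7 lay above every vehicle library and library 3 lay below all of them. Its log2 difference was 0.35 ± 0.12 (SE, adjusted p = 0.0676 in edgeR and 0.0309 in DESeq2). Without fluoxetine library 3 it was 0.42 (adjusted p = 0.0103 in edgeR) and without vehicle library 1 it was 0.40 (0.0413). Summed astrocyte markers ran from 366 to 520 CPM with vehicle and from 420 to 1352 with fluoxetine in these libraries, and microglia markers from 2.93 to 6.47 and from 3.98 to 79.0 CPM, both highest in fluoxetine library 4. Without that library the difference was 0.31 for Fxyd6 (adjusted p = 0.135 in edgeR) and 0.20 for Stmn4 (0.119). Summed interneuron markers ran from 3207 to 4419 CPM with vehicle and from 2875 to 5682 with fluoxetine. They were lowest in fluoxetine library 3 and highest in library 2, which held the lowest and the highest level of Fxyd6. Fluoxetine library 4 did not follow, with 3513 CPM of these markers and 310 CPM of Fxyd6. For 6 CA3 pyramidal markers the sum reached at most 648 CPM with vehicle. With fluoxetine it ran from 665 to 1273 CPM, highest in library 4, so the treatments were fully apart. Of these 6 genes 3 rose past the threshold and 0 fell, with a median log2 difference of 0.78. The part of interneuron or CA3 pyramidal RNA in the differences of Fxyd6 and Stmn4 was not tested. Without fluoxetine libraries 2 and 4 the difference was 0.26 for Fxyd6 (0.233 in edgeR) and 0.18 for Stmn4 (0.175). Rn45s itself rose by 0.34 in these libraries (adjusted p = 0.0312 in edgeR). With its share as a covariate the difference was 0.20 for Fxyd6 (0.588) and 0.19 for Stmn4 (0.374).

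For the other 7 genes in mossy cells the log2 differences ran from −0.12 for Uchl1 to 0.05 for Gng3, with adjusted p-values from 0.349 to 0.996 in edgeR. The 95% interval of the difference was −0.27 to 0.03 for Uchl1, −0.20 to 0.15 for Stmn2, −0.18 to 0.18 for Stmn3 and −0.23 to 0.19 for Gap43. For Basp1, Cend1 and Gng3 it was −0.20 to 0.13, −0.20 to 0.15 and −0.13 to 0.23. Of 33 other axon growth genes, 6 were higher and 0 lower in these libraries, among them the adhesion molecules Ncam1 (0.59) and Nfasc (0.59) and the contactin Cntn2 (0.48). The tubulin binding gene Stmn1 stood at −0.22 (adjusted p = 0.143 in edgeR). The list median was −0.05, beside −0.02 for the 9 and −0.0033 for all genes.

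In hippocampus 2 of the 9 fell and 1 rose, where 14.7% of 15596 genes fell and 15.5% rose (30.2% either way). With the offset for GC content and length, the 2411 genes that rose and 2294 that fell became 1742 and 2997. Uchl1 ran from 522 through 548 to 562 CPM with vehicle and from 355 through 469 to 499 with fluoxetine. All 7 fluoxetine libraries lay below every vehicle library, as for 4.39% of genes, and Uchl1 fell by 0.27 ± 0.07 on the log2 scale (SE, adjusted p = 0.00728 in edgeR, n = 6 and 7). Without any 1 library its adjusted p stayed between 0.00504 and 0.0169 in edgeR. Gap43 ran from 146 through 159 to 177 CPM with vehicle and from 115 through 143 to 163 with fluoxetine. The groups overlapped, with 4 of 7 fluoxetine libraries below every vehicle library, and Gap43 fell by 0.20 ± 0.07 (SE, adjusted p = 0.0441 in edgeR). Fxyd6 ran from 43.8 through 53.0 to 54.4 CPM with vehicle and from 49.3 through 59.2 to 75.9 with fluoxetine. Here 6 of 7 fluoxetine libraries lay above every vehicle library (4.6% of genes had all 7 above, none of them among the 9), and Fxyd6 rose by 0.24 ± 0.09 (SE, adjusted p = 0.0395 in edgeR).

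The calls of Gap43 and Fxyd6 were near the threshold, and their log2 differences ran from −0.24 to −0.15 and from 0.19 to 0.30 over 13 fits with 1 library left out. Gap43 lost its call without vehicle library 1, 2, 3, 4 or 5 or fluoxetine library 4, 5 or 6, with adjusted p-values from 0.0519 to 0.105 in edgeR. Fxyd6 lost it without vehicle library 1, 2, 3 or 5 or fluoxetine library 2, 3, 4 or 6, at 0.0502 to 0.0964. With all libraries, Gap43 lost its call under upper quartile scaling (0.0566), a mean CPM filter of 5 (0.0647), without Rn45s and Lars2 (0.0586), and with the GC content offset (0.0559) or an Rn45s covariate (0.12), all in edgeR. Fxyd6 lost it with no filter (0.0501), the offset (0.0694) or the covariate (0.134). With the offset, Cend1 fell past the threshold beside Uchl1. Without fluoxetine library 7, which held the highest level of Stmn2, Stmn3, Basp1, Cend1 and Gng3 in its group, 6 of the 9 fell and 1 rose, where 2502 of all genes fell and 2544 rose. Stmn2, Basp1, Cend1 and Gng3 then joined Uchl1 and Gap43 with adjusted p-values of 0.0259, 0.0296, 0.0218 and 0.0252 in edgeR. With all libraries their log2 differences were −0.17 for Stmn2 (adjusted p = 0.0583 in edgeR), −0.13 for Basp1 (0.167), −0.17 for Cend1 (0.0691) and −0.14 for Gng3 (0.116). Stmn3 stood at −0.10 (0.182) and Stmn4 at 0.01 (0.897). Stmn2 also passed without fluoxetine library 2 (0.0425).

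Genes of the same families and pathways were measured in the same hippocampus libraries. Stmn1, the widely expressed stathmin, fell by 0.36 (adjusted p = 0.00782 in edgeR). Of 33 other axon growth genes 9 fell and 6 rose, the latter led by Nfasc (0.53), Ncam1 (0.48) and Nrcam (0.34), and of 37 family and partner genes 9 fell and 7 rose, with the gamma subunits Gng10 (−0.29) and Gng2 (−0.28) and the kinase Mapk8 (−0.27) falling. The list medians were −0.10 and −0.14, beside −0.14 for the 9 and 0.0013 for all genes. Of 12 pan-neuronal genes 4 fell and 1 rose (median −0.09). Of the glial markers, 5 of 6 astrocyte and 7 of 8 microglia genes rose, while of 6 oligodendrocyte genes 0 rose and 1 fell (Mobp, −0.29, adjusted p = 0.046 in edgeR). Summed astrocyte markers ran from 1411 to 1740 CPM with vehicle and from 1818 to 5630 with fluoxetine, and microglia markers from 29.0 to 35.0 and from 41.4 to 222 CPM, both highest in fluoxetine library 4. Choroid plexus markers ran up to 5267 CPM with vehicle and 107 with fluoxetine. In RNA of many cells, fewer cells of a type and less RNA per cell cannot be told apart. Without fluoxetine libraries 2 and 4, the pair highest in the astrocyte and microglia sums and an alternative chosen after seeing the data, Uchl1 alone of the 9 passed (−0.24, adjusted p = 0.00276 in edgeR). Gap43 stood at −0.17 (0.0709) and Fxyd6 at 0.14 (0.154). The part of the remaining difference in these markers was not tested. Without vehicle libraries 1, 2 and 4 none of the 9 did in edgeR (Uchl1 −0.29, 0.0568), and 1031 genes passed in place of 4705.

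In granule cells none of the 9 passed in edgeR, as 0% of 14236 genes did. At an unadjusted p under 0.05 there were 1056 genes, none of them among the 9, and DESeq2 called 77 genes. Of genes drawn at random from all genes tested and changed 2-fold in simulated granule cell counts, edgeR recovered 16%. Recovery of the 9 themselves was not measured. Their fitted standard errors here ran from 0.17 for Gng3 to 0.32 for Basp1 on the log2 scale. Stmn4 held 188, 179, 185 and 202 CPM with vehicle and 140, 157, 176 and 175 CPM with fluoxetine. All 4 fluoxetine libraries lay below every vehicle library, as for 1.97% of genes, at a log2 difference of −0.23 ± 0.17 (SE, adjusted p = 0.777 in edgeR). For the other 8 genes the groups overlapped (2.46% of genes were fully higher), and the differences ran from −0.07 for Fxyd6 to 0.20 for Gap43, with adjusted p-values from 0.826 to 0.982. Basp1 held 697, 417, 560 and 1124 CPM with fluoxetine, a spread as wide as with vehicle.

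**Figure D3:**
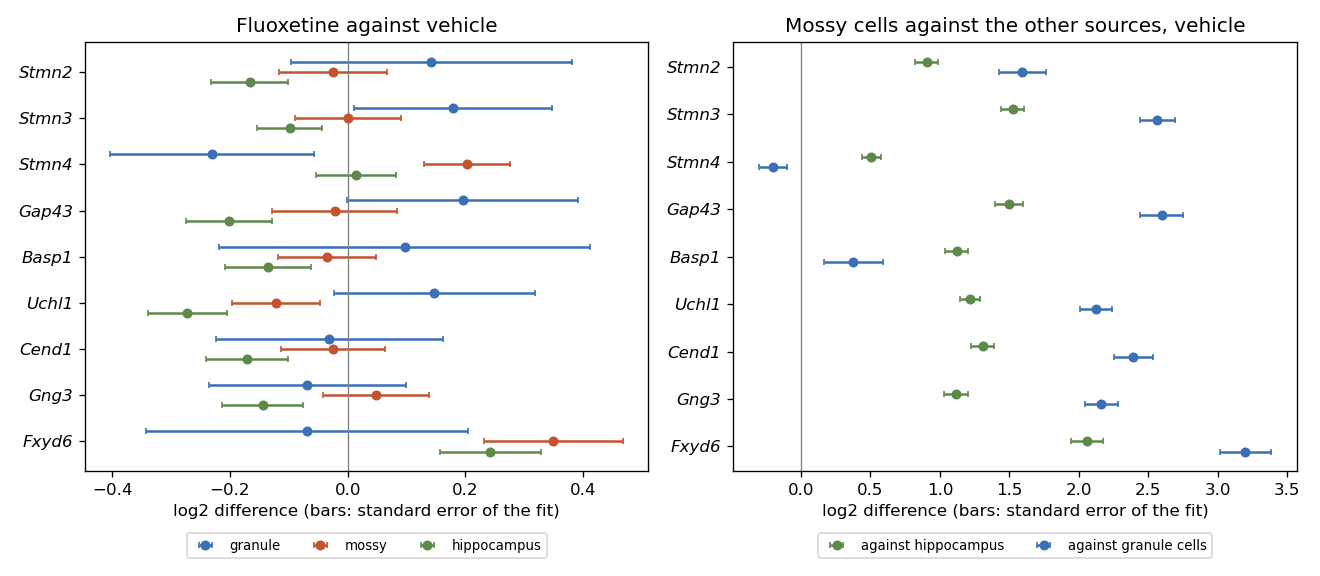
Left, log2 difference of fluoxetine against vehicle for each of the 9 genes in granule cells, mossy cells and hippocampus; right, log2 difference of vehicle mossy cells against hippocampus and granule cells (horizontal axes; bars are the standard error of the fit). Uchl1 has the lowest hippocampus value, −0.27, and Stmn4 is the gene with a negative value, −0.20, against granule cells.

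The fluoxetine effect itself was compared between sources. None of the 9 differed between mossy cells and hippocampus, where 0.044% of 15922 genes did in edgeR (0.00628% higher and 0.0377% lower). The effect in mossy cells minus that in hippocampus ran from 0.12 for Stmn3 and Basp1 to 0.21 for Stmn4 and Gng3, with adjusted p-values from 0.404 to 0.772 in edgeR. The median over all genes was 0.06. At an unadjusted p under 0.05 there were 1790 genes, and Stmn4 alone of the 9 was among them. The 95% interval was −0.03 to 0.37 for Uchl1, so that its fall in hippocampus is not shown to be absent in mossy cells. With libraries of 1 number and treatment paired over both sources, 116 genes passed in place of 7, and again none of the 9.

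None of the 9 differed between granule and mossy cells either, where 0.181% of 15444 genes did in edgeR (0.0518% higher and 0.13% lower). Stmn4 had the smallest p of the 9, with an effect in granule cells lower by 0.42 ± 0.14 on the log2 scale (SE, adjusted p = 0.173 in edgeR). With 1 library left out the adjusted p ran from 0.133 to 0.253, and under 11 other settings from 0.0576 to 0.476, in edgeR or DESeq2. Fxyd6 followed at −0.41 ± 0.23 (adjusted p = 0.421 in edgeR) and Uchl1 at 0.28 ± 0.15 (0.399). The other 6 ran from −0.11 for Gng3 to 0.23 for Gap43. Genes with an unadjusted p under 0.05 numbered 2151. The count of 28 genes over the whole table ran from 0 to 354 with 1 library left out, highest without fluoxetine library 2 of granule cells, and no count included one of the 9.

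The share of a gene within its family was also compared between treatments. The share of Stmn4 among Stmn1 to Stmn4 ran from 4.94 to 5.56% in vehicle mossy cells and from 5.50 to 7.03% with fluoxetine. The means were 5.19% and 6.23%, 6 of 7 fluoxetine libraries lay above every vehicle library, and the exact permutation p was 0.00291 (two-sided, adjusted 0.0612 over 21 shares and sources). In hippocampus its mean went from 8.73% to 10.01% (exact permutation p = 0.039, adjusted 0.198). In granule cells it went from 20.5% to 17.1%, with all 4 fluoxetine libraries below every vehicle library (exact permutation p = 0.0286, the smallest that 4 against 4 allow, adjusted 0.198). With these libraries paired by number, as a test added after seeing the data, it was lower in 4 of 4 pairs (exact sign-flip p = 0.125, the smallest that 4 pairs allow). The share of Gng3 went from 28.6% to 34.5% in granule cells and was higher in 4 of 4 pairs, at the same paired p. Of the 21 unpaired tests none passed after adjustment, and 5 had an unadjusted p under 0.05. Beside the 3 of Stmn4 these were Stmn3 (41.1% to 43.4%) and Fxyd6 (20.9% to 24.8%) in hippocampus, with 5 of 7 fluoxetine libraries above every vehicle library for each. A share also moves with the other genes of its family. In hippocampus Stmn3 itself stood at −0.10, Stmn4 at 0.01 and Fxyd6 at 0.24 (log2), while Stmn1 stood at −0.36. Gng3 itself stood at −0.07 in granule cells, and Stmn4 at −0.23 there and at 0.20 in mossy cells, where Stmn1 stood at −0.22.

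Several libraries lay to one side of their group mean for most of the 9 genes. In mossy cells, fluoxetine library 2 was above its group mean for 8 of 9 genes, and libraries 3 and 4 for 1 each. Vehicle library 4 was below the mean for all 9. Fluoxetine library 4 of hippocampus, the library highest in glial markers, was above the mean for Fxyd6 alone, and fluoxetine library 4 of granule cells was above it for all 9. In mossy cells 8 of 9 genes had a larger SD with fluoxetine than with vehicle, as did 80% of all genes, and the median SD of the 9 on the log2 scale went from 0.09 to 0.21. In hippocampus it was 9 of 9, against 61.8% of all genes, and in granule cells 6 of 9, against 50.9%. No test was made of these spreads.

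**Figure D4:**
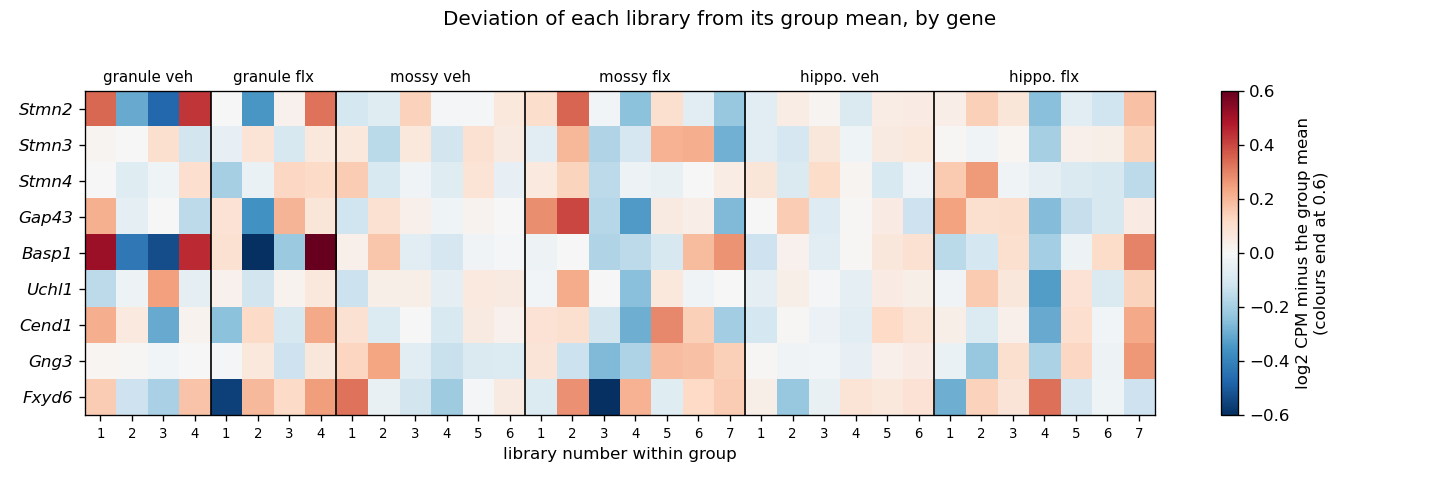
Deviation of each library (columns, numbered within group) from its group mean in log2 CPM for the 9 genes (rows); red is above and blue below the mean, with colours ending at 0.6 in either direction. Fluoxetine library 2 of mossy cells is mostly red, at 8 of 9 genes, and fluoxetine library 4 of mossy cells and of hippocampus mostly blue.

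Reads of the 9 genes can be told from those of other genes with 2 exceptions. In GENCODE M21 (GRCm38), 21.9% of the 50-base words of the Gng3 transcript (chr19:8836933-8839194) also lie in Bscl2 on the opposite strand, and 16.2% of those of Uchl1 (chr5:66676091-66687234) lie in Uchl1os. The strand setting of the counting is not given in the sources used here, so counts of these pairs may be split or mixed. Bscl2 rose by 0.49 in mossy cells (adjusted p = 0.00963 in edgeR) and by 0.28 in hippocampus (0.0119). Uchl1os was not among the genes tested in any fit, so no change is given for it. The other 7 shared no 50-base word with another gene, and the longest run shared between stathmins was 43 bases, between Stmn1 and Stmn2, under the 50 bp read length.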

How the data were processed

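Per the labels' protocols, which name TRAP, 34 libraries were read as 50 bp pairs from cDNA made with 500 pg of RNA. Whether the hippocampus libraries hold bound or input RNA is not stated. The deposited values are counts, raw read counts per gene symbol given by the authors in 3 tables, 1 per source. STAR 2.5.2b, HTSeq 0.7.2, edgeR and the GRCm38 build are named in the submitters' processing notes; the annotation and strand setting are not given in the sources used here. Counts include PCR copies and are not independent molecules. No pair of libraries agreed within sampling noise (chi-square over degrees of freedom 6.56 to 375).

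Fluoxetine effects were fitted within each source with edgeR 4.0.16 in R 4.3.3 (TMM, filterByExpr, glmQLFit, glmQLFTest, two-sided, Benjamini-Hochberg over all genes, threshold 0.05). Interactions and levels between sources came from joint fits of 4 groups. All 9 genes passed the low-count filter in each fit. The standard error is the log2 difference divided by the square root of F. CPM use one TMM scaling over all libraries, and RPKM the longest protein-coding transcript of GENCODE M21. Alternatives were DESeq2 1.42.0, other scalings and filters, a GC content and length offset, the Rn45s share as a covariate, replicate blocks, and libraries left out. On simulated counts edgeR recovered 80% of genes changed 2-fold in mossy cells and 84% in hippocampus. Of genes changed 1.5-fold it recovered 40% and 62%. For the interaction of mossy cells with hippocampus it recovered 66% at 2-fold and 36% at 1.5-fold. For that of granule with mossy cells the rates were 10% and 0%. The changed genes, 50 per fold, were drawn at random from all genes tested, and all other genes were left unchanged. In the real hippocampus fit 30.2% of genes passed, so the adjusted threshold differs and these rates need not hold in the real fits. The text names the 9 genes, up to 3 called genes per list by smallest p, the stathmin Stmn1, the overlapping Bscl2 and the 10 most alike genes. Some named genes of the family and partner list in mossy cells are not reported here. The 9 genes and the lists were chosen with earlier results of these data known. Libraries of mossy cells and hippocampus with the same number and treatment deviated together (correlations 0.13 to 0.68). Vehicle and fluoxetine granule cell libraries of the same number did so too (0.18 to 0.39). The former were paired by number and treatment in an alternative fit of the interaction only. The interaction and level values of the main fits ignore this pairing.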

Additional observations from a re-analysis of the deposited data

Results flagged for a closer look

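In granule cells with fluoxetine, Stmn3 held 36.8% of the summed RPKM of Stmn1 to Stmn4 in library 2, and the nearest of the other 3 libraries held 30.9%. The gap to that library was 0.829 of the group's range, just past Dixon's 95% critical value for 4 samples. It was the 1 library set apart among 96 groups of values tested, and chance sets about 1 in 20 such groups apart.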

How the results depend on the processing

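Of the 9 genes, the number called in mossy cells was 0, but 1 with a mean CPM filter of at least 5 and 2 with DESeq2, and 0 to 1 with 1 library left out. In hippocampus it was 3, but 2 under a mean CPM filter, the GC content offset, upper quartile scaling, without Rn45s and Lars2 or without a low-count filter, 7 with the replicate block, which rests on numbers that do not pair these libraries, 1 with the Rn45s covariate, 1 without fluoxetine libraries 2 and 4, 0 without vehicle libraries 1, 2 and 4, and 1 to 7 with 1 library left out. The last 2 sets of libraries were left out in hippocampus after seeing the data. Over all genes tested, 1325 (9.31%) were called in mossy cells and 4705 (30.2%) in hippocampus. With 1 library left out these whole-table counts ran from 773 to 1744 and from 3447 to 5046. Those under most other settings are not reported here, so the member counts are not read as a result about the 9. The replicate block changed no call of the 9 in granule cells or in either interaction. Differences near 0 changed sign, and the cause was not tested. In mossy cells Stmn3 went to −0.026 (upper quartile scaling), −0.0064 (without Rn45s and Lars2), −0.024 (GC content offset), −0.066 (Rn45s covariate), −0.015 (without fluoxetine libraries 2 and 4) and −0.084 (without vehicle libraries 1, 2 and 4). With the GC content offset, the replicate block and the Rn45s covariate, Stmn2 went to 0.057, 0.0019 and 0.081, and Gap43 to 0.050, 0.00016 and 0.074. Gng3 went to −0.056 with the covariate and Cend1 to 0.015 without fluoxetine libraries 2 and 4. In hippocampus Stmn4 went to −0.030 without fluoxetine libraries 2 and 4, and in granule cells Basp1 to −0.016 with the covariate. In the interaction of granule with mossy cells Cend1 went to −0.011 (DESeq2 size factors), −0.0062 (mean CPM filter), −0.0024 (GC content offset), −0.011 (DESeq2), −0.015 (replicate block), −0.011 (covariate) and −0.028 (without fluoxetine libraries 2 and 4), and Basp1 to −0.057 (covariate). With the GC content offset, levels against granule cells went to −0.28 (vehicle) and −0.42 (fluoxetine) for Basp1 and to −0.30 (fluoxetine) for Stmn4. With 1 library left out, differences in granule cells ran from −0.23 to 0.29 for Basp1, −0.13 to 0.055 for Cend1, −0.15 to 0.084 for Fxyd6 and −0.0040 to 0.30 for Stmn2. In mossy cells they ran from −0.077 to 0.010 for Cend1, −0.096 to 0.021 for Gap43, −0.090 to 0.012 for Stmn2 and −0.050 to 0.045 for Stmn3, in hippocampus from −0.025 to 0.042 for Stmn4. In the interaction of granule with mossy cells they ran from −0.18 to 0.34 for Basp1 and −0.083 to 0.085 for Cend1. Over the whole table, 1325 genes called in mossy cells became 773 without vehicle library 4 and 13 with the covariate, and 4705 in hippocampus became 1031 without vehicle libraries 1, 2 and 4. With the GC content offset the split of 2411 higher and 2294 lower genes in hippocampus became 1742 and 2997.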
